A study of Mus musculus with 12 samples.

Results

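The integrin genes of CD4+ T cells described here are 5 alpha chains (*Itga4*, *Itga6*, *Itgal*, *Itgav* and *Itgae*) and 4 beta chains (*Itgb1*, *Itgb2*, *Itgb3* and *Itgb7*). They were chosen by name with earlier results of these data known, and are read as partners in heterodimers. They are 9 of 56691 mouse genes in the count table. All 9 passed the filter of 30 reads summed over all samples, as did 15138 genes in all. Integrins are surface receptors made of 1 alpha and 1 beta chain, and a chain without a partner does not reach the cell surface. On T cells they bind ligands on vessel walls, antigen-presenting cells and matrix. They are switched from a bent to an extended form by signals from inside the cell, among them those of the T cell receptor (TCR).

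Splenic CD4+ T cells came from 12 Tg4 *Nr4a3*-Tocky *Il10*-GFP mice, 3 per group and 1 library per mouse. All mice carry the Tg4 transgenic TCR, which recognises a myelin basic protein (MBP) peptide, a Timer reporter driven by *Nr4a3* and a GFP reporter of *Il10*. The study's mice were typically 6 to 8 weeks old and of both sexes. Every mouse received 4 mg/kg of [4Y]-MBP peptide and, 24 h later, antibody. The isotype group received a pool of rat IgG1 and rat IgG2a, the anti-PD-L1 group clone MIH5, the anti-Lag3 group clone C9B7W, and the CB group (combination blockade) both blocking antibodies. The stated dose was 0.5 mg. After 30 min a second peptide dose of 0.4 mg/kg was given, and spleens were collected 12 h after this dose. Cells positive for both the blue and the red form of Timer, the responder cells, were sorted in every group. Per the study's methods the cells of the 4 conditions were multiplexed for the sort, with a different CD4 antibody label per condition, and sorted in batches of 4. The paper attributes a principal component of these data largely to batch sorting. The labels used here do not tie a mouse to a batch, so no values within batches could be given. The cells thus had 1 TCR specificity and were gated on a reporter that TCR signalling itself drives.

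The 3′ ends of mRNA were sequenced without molecular identifiers, and the libraries held 16449370 to 22151025 reads on genes. Levels are given as normalised read counts (CPM, read counts relative to the library size scaled by edgeR's TMM factors), per mouse or as mean ± SD over 3 mice. These reads do not scale with transcript length, so CPM was not divided by length. Tests compared groups and not genes, and levels of different genes are set side by side only as a description. Differences are log2 fold changes with their standard error (SE). A gene was called where edgeR's quasi-likelihood test gave a Benjamini-Hochberg adjusted p under 0.05 over all genes tested, and every adjusted p below is of this kind unless another tool is named. In sorted bulk cells, fewer cells with a transcript and less transcript per cell cannot be told apart. The labelled cell type was checked first. All 5 CD4 T cell markers were present, with a summed level of 1443 to 1854 CPM, against 1.52 to 20.6 CPM for 5 B cell markers, 5.35 to 15.7 CPM for 6 myeloid markers and 0.443 to 4.70 CPM for 4 NK cell markers. The 8 platelet and megakaryocyte markers summed to 0 to 3.31 CPM, and of these *Gp1ba* and *Gp1bb* had no read in any library. Higher sums were seen for 5 erythroid markers, at 149.5 to 449 CPM, and for 2 CD8 markers, at 24.6 to 46.4 CPM.

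Between CB and isotype, 4 of the 9 chains were called lower in CB and none was called higher. The 4 were *Itga4* and *Itga6*, which fell 1.85-fold and 1.87-fold, and *Itgb7* and *Itgal*, which fell 1.37-fold and 1.29-fold. Of all 15138 genes tested, 1.96% were called lower in this comparison and 4.29% in either direction. The paper had already named *Itga4* and *Itga6* among the genes downregulated with CB, so the count of 4 is not independent of earlier results. In each of these 4 genes every CB mouse lay below every isotype mouse, which was so for 9.62% of all genes tested. *Itgae* had no read in CB. Of the other 8 chains, 7 had a log2 fold change below 0, beside 50.02% of all genes with a mean count of 30 or more. The median log2 fold change of these 8 chains was -0.52, beside a median of 0 over all genes tested. Both partners of the pair *Itga4* and *Itgb7* were called. In the pairs of *Itgal* with *Itgb2* and of *Itga4* and *Itga6* with *Itgb1* the alpha chain alone was called. *Itgb1* lay close to the threshold (adjusted p = 0.0568, edgeR).

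**Figure D1:**
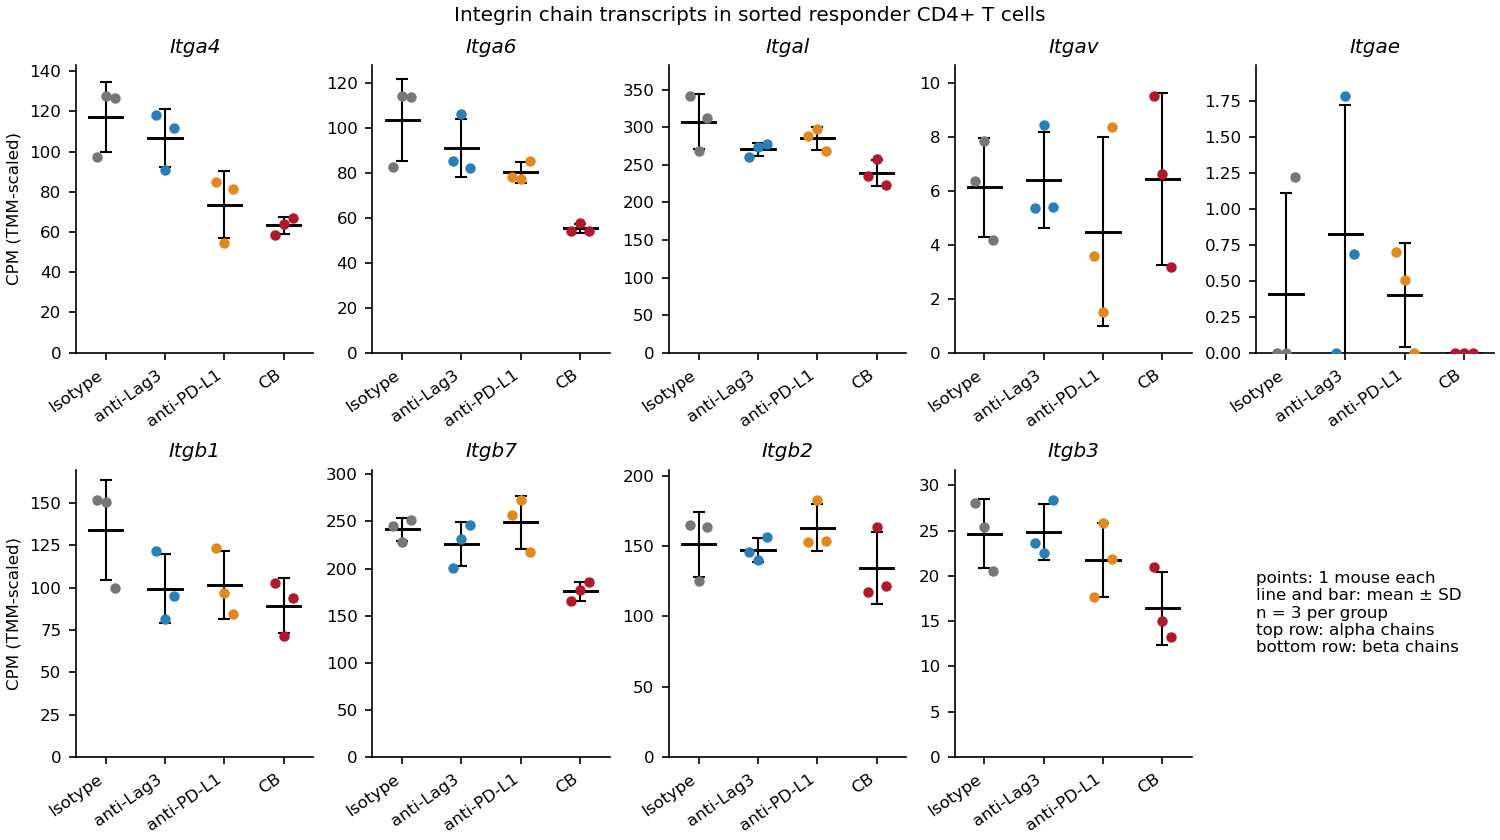
Level of each integrin chain in every mouse. Each panel has its own vertical axis in TMM-scaled CPM starting at 0, each point is 1 mouse, and the line and bar are the mean ± SD of 3 mice. For Itga4, Itga6, Itgal and Itgb7 the 3 CB points lie below the 3 isotype points, whereas for Itgb1, Itgb2, Itgb3 and Itgav they overlap with them, and Itgae is at 0 in CB.

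The alpha4 integrins came first. The alpha4 chain, encoded by *Itga4* (ENSMUSG00000027009, chromosome 2 from 79255426 to 79333123 of GRCm38, plus strand), pairs with beta1 to bind VCAM-1 and fibronectin, and with beta7 to bind MAdCAM-1 on vessels of the gut. The 3 isotype mice had 97.1, 128 and 127 CPM of *Itga4* and the 3 CB mice 58.7, 63.9 and 67.1 CPM. The highest CB mouse thus lay well below the lowest isotype mouse. *Itga4* fell by 0.89 on the log2 scale (SE 0.16, adjusted p = 0.00115, edgeR), which is a 1.85-fold lower level. Exons of *Cerkl* overlap *Itga4* on the other strand and no source used here says how strand was counted, but *Cerkl* had 411 reads over all samples against 20745 for *Itga4*.

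The beta7 chain, encoded by *Itgb7* (ENSMUSG00000001281, chromosome 15 from 102215995 to 102231944, minus strand), is the partner of alpha4 in the gut homing receptor and of alphaE in the receptor for E-cadherin. *Itgb7* had 245, 228 and 252 CPM in the isotype mice and 165, 177 and 186 CPM in the CB mice. The groups did not overlap. *Itgb7* fell by 0.46 (SE 0.11, adjusted p = 0.0131, edgeR), or 1.37-fold. Its call was lost without isotype replicate 3 (adjusted p = 0.0533, edgeR) and without CB replicate 1 (adjusted p = 0.0730, edgeR), with log2 fold changes of -0.43 and -0.42.

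The beta1 chain, encoded by *Itgb1* (ENSMUSG00000025809, chromosome 8 from 128685654 to 128733200, plus strand), is shared by many alpha chains, alpha4 and alpha6 included. *Itgb1* had 152, 151 and 100 CPM in the isotype mice and 103, 71.4 and 94.0 CPM in the CB mice. Isotype replicate 3 lay within the range of the CB mice, so the groups overlapped. The log2 fold change of -0.59 (SE 0.18) was not past the threshold (adjusted p = 0.0568, edgeR). This value sat at the edge of the call. Without isotype replicate 3 it was -0.76 with an adjusted p of 0.0121 (edgeR), and with DESeq2's Wald test the adjusted p was 0.0311. *Itgb1* was also called without anti-PD-L1 replicate 1 (adjusted p = 0.0383, edgeR), without anti-PD-L1 replicate 3 (adjusted p = 0.0462, edgeR) and without anti-Lag3 replicate 1 (adjusted p = 0.0435, edgeR).

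The promoters of these 3 chains are shown because they encode the alpha4 heterodimers and 2 of them were called together. RefSeq windows of GRCm38.p6 matched 4 of the 9 chains, and the 250 bases right before the RefSeq start are printed here 5′ to 3′ on the strand of the gene, for *Itga4* (chr2:79255176-79255425, plus strand), *Itgb7* (chr15:102231936-102232185, minus strand) and *Itgb1* (chr8:128685404-128685653, plus strand). The RefSeq start of *Itgb7* lies a few bases inside the gene as the GENCODE coordinates above give it, so the end of its window overlaps the gene. Capitals mark matches on either strand to 5 short motifs. The motif of RUNX factors was searched as TGTGGT, that of ETS factors was searched as CCGGAA, that of Sp1 and its relatives was searched as GGGCGG and the core motif of NFAT was searched as GGAAAA. The box that some promoters hold near the start was searched as TATAAA.
Itga4: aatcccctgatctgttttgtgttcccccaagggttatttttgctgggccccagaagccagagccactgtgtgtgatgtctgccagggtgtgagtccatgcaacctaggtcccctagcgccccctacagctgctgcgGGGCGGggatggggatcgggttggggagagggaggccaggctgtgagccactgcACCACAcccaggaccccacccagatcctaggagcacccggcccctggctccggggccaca
Itgb7: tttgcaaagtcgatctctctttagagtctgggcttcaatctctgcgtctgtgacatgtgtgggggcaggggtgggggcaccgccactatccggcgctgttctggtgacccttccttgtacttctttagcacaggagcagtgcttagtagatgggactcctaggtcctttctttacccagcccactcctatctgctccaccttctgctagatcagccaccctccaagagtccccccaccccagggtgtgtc
Itgb1: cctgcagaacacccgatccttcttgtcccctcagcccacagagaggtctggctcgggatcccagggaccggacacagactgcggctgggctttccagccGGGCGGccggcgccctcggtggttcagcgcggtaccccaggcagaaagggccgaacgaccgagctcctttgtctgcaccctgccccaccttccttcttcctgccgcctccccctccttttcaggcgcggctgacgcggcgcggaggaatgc
The window of *Itga4* held 1 Sp1 match, from 114 to 109 bases before the start, and 1 RUNX match on the opposite strand, from 60 to 55 bases before it. The window of *Itgb1* held 1 Sp1 match, from 151 to 146 bases before the start, and that of *Itgb7* held no match to any of the 5. Of 32817 mouse promoter windows of the same length, 32.7% held the Sp1 motif, 14.0% the RUNX motif, 12.0% the ETS motif, 20.4% the NFAT core and 12.4% the box near the start. The windows of *Itga4* and *Itgb1* had 64.0% and 68.0% G and C and that of *Itgb7* 56.0%. A match describes letters in this window and not binding.

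The alpha6 chain, encoded by *Itga6* (ENSMUSG00000027111, chromosome 2 from 71745616 to 71858416, plus strand), pairs with beta1 in T cells to form a laminin receptor. *Itga6* had 82.5, 114 and 114 CPM in the isotype mice and 54.2, 57.5 and 54.3 CPM in the CB mice. The CB mice were close to each other and all below the isotype mice. *Itga6* fell by 0.90 (SE 0.15, adjusted p = 3.76e-04, edgeR), or 1.87-fold. The calls of *Itga4* and *Itga6* were kept whichever of the 12 mice was left out, where the log2 fold changes were -1.01 to -0.82 for *Itga4* and -1.05 to -0.83 for *Itga6*.

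LFA-1, the integrin that binds ICAM-1 and holds the contact between a T cell and an antigen-presenting cell, is made of alphaL and beta2. The alphaL chain is encoded by *Itgal* (ENSMUSG00000030830, chromosome 7 from 127296260 to 127335138, plus strand). *Itgal* had 342, 269 and 312 CPM in the isotype mice and 236, 257 and 224 CPM in the CB mice. The gap between the groups was narrow, from 257 CPM in CB replicate 2 to 269 CPM in isotype replicate 2. *Itgal* fell by 0.36 (SE 0.10, adjusted p = 0.0411, edgeR), or 1.29-fold. This call was lost without isotype replicate 1 or 3, CB replicate 1 or 3, or anti-Lag3 replicate 2 or 3, with adjusted p-values of 0.0510 to 0.233 (edgeR) and log2 fold changes of -0.37 to -0.28. It was also lost with the 2 compared groups alone in the fit (adjusted p = 0.0611, edgeR).

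The beta2 chain, encoded by *Itgb2* (ENSMUSG00000000290, chromosome 10 from 77530252 to 77565708, plus strand), is the common partner of alphaL and of the alphaM, alphaX and alphaD chains. *Itgb2* had 165, 125 and 163 CPM in the isotype mice and 118, 164 and 122 CPM in the CB mice. Isotype replicate 2 and CB replicate 2 each lay among the mice of the other group. Its log2 fold change was -0.17 (SE 0.14, adjusted p = 0.623, edgeR), so no difference was detected at this spread.

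The beta3 chain, encoded by *Itgb3* (ENSMUSG00000020689, chromosome 11 from 104608000 to 104670476, plus strand), pairs with alphaV in T cells and with another alpha chain in platelets. *Itgb3* had 28.1, 25.4 and 20.5 CPM in the isotype mice and 21.0, 15.0 and 13.3 CPM in the CB mice. CB replicate 1 lay just above isotype replicate 3. The log2 fold change of -0.59 (SE 0.26) was as large as that of *Itgb1* but not past the threshold (adjusted p = 0.265, edgeR). The summed level of 8 platelet and megakaryocyte markers was 0 to 3.31 CPM over all libraries, so these transcripts were near 0 beside *Itgb3*.

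The alphaV chain, encoded by *Itgav* (ENSMUSG00000027087, chromosome 2 from 83724397 to 83806916, plus strand), forms receptors for vitronectin with beta3 and other beta chains. *Itgav* had 6.39, 7.85 and 4.18 CPM in the isotype mice and 9.53, 6.63 and 3.18 CPM in the CB mice. The spread within CB was as wide as the range over both groups. The log2 fold change was 0.07 (SE 0.59, adjusted p = 1.00, edgeR), and its sign turned without isotype replicate 3 (-0.15) and without CB replicate 1 (-0.32).

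The alphaE chain, encoded by *Itgae* (ENSMUSG00000005947, chromosome 11 from 73090583 to 73147446, plus strand), is CD103, which holds T cells in epithelia. *Itgae* had 93 reads in all 12 libraries. The isotype mice had 0, 0 and 23 reads, the anti-PD-L1 mice 12, 9 and 0, the anti-Lag3 mice 0, 36 and 13, and the CB mice 0, 0 and 0. In every group at least 1 mouse had no read. A count of 0 among the 62669000 reads of the CB group allows up to 3 reads, or 0.0487 CPM, for counting error alone. The adjusted p against isotype was 0.369 (edgeR), and no difference in *Itgae* was detectable at this depth.

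Each antibody alone was compared with isotype to see how much of these differences a single blockade gave. With anti-PD-L1 alone, none of the 9 chains was called, beside 0.0330% of all genes tested (5 genes; 1187 at an unadjusted p under 0.05). *Itga4* had 84.8, 54.3 and 81.3 CPM in these mice. All 3 lay below the lowest isotype mouse, as did this group for 6.46% of all genes tested, and 1 of them lay below every CB mouse. *Itga4* was the only one of the 9 chains without overlap in this comparison. The log2 fold change of *Itga4* was -0.67 (SE 0.16, adjusted p = 0.218, edgeR). It was past the threshold with no filter on low counts (adjusted p = 0.00685, edgeR), and also with the replicate number as a block in edgeR's fit. *Itga6* had 78.0, 77.3 and 85.5 CPM with anti-PD-L1, a log2 fold change of -0.37 (SE 0.15, adjusted p = 0.532, edgeR), and 1 of these mice lay above the lowest isotype mouse. *Itgb7* had 257, 273 and 218 CPM, with a log2 fold change of 0.04 (SE 0.11, adjusted p = 0.987, edgeR), and its mice lay above and below the range of the isotype group. *Itgb1* had 123, 97.2 and 84.4 CPM, with a log2 fold change of -0.40 (SE 0.18, adjusted p = 0.593, edgeR).

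With anti-Lag3 alone, again none of the 9 was called, as was none of all genes tested (0.00%; 788 genes had an unadjusted p under 0.05, and DESeq2's Wald test called 5 genes higher and 4 lower). *Itga4* had 118, 90.6 and 111 CPM, a log2 fold change of -0.13 (SE 0.16, adjusted p = 1.00, edgeR). *Itga6* had 85.4, 106 and 82.3 CPM, a log2 fold change of -0.18 (SE 0.15, adjusted p = 0.914, edgeR). Both genes overlapped with the isotype mice. *Itgb7* had 200, 232 and 246 CPM (log2 fold change -0.10, SE 0.11, adjusted p = 1.00, edgeR) and *Itgb1* 122, 81.5 and 94.9 CPM (-0.43, SE 0.18, adjusted p = 0.805, edgeR). *Itgal* had 261, 274 and 278 CPM with anti-Lag3 and 288, 299 and 269 CPM with anti-PD-L1. The mean of *Itgal* lay between those of CB and isotype in both groups, and its log2 fold changes against isotype were -0.18 and -0.11 (SE 0.10 each). All comparisons with isotype share the same 3 isotype mice.

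In the order of their means, *Itga4* and *Itga6* both ran from CB through anti-PD-L1 and anti-Lag3 to isotype. For *Itga4* the means were 63.3 ± 4.23, 73.5 ± 16.7, 107 ± 14.3 and 117 ± 17.3 CPM. The wide step in this order lay between anti-PD-L1 and anti-Lag3, whose mice did not overlap. The log2 difference between them was -0.54 (SE 0.16, adjusted p = 0.802, edgeR), and over all genes tested 0.00% were called in this comparison while 4.69% lay lower in all anti-PD-L1 mice. For *Itga6* the means were 55.3 ± 1.89, 80.3 ± 4.52, 91.3 ± 12.9 and 104 ± 18.3 CPM, and the wide step lay between CB and anti-PD-L1. *Itgb7* ran from CB through anti-Lag3 and isotype to anti-PD-L1, with means of 176 ± 10.2, 226 ± 23.5, 242 ± 12.4 and 249 ± 28.3 CPM. Among the 3 groups other than CB, no neighbours in the order of these 3 genes were called different.

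CB was then compared with each single antibody, which asks what the second antibody added. Against anti-Lag3, 2 of the 9 chains were called lower in CB and none higher, beside 0.304% of all genes tested called lower. *Itga4* fell by 0.75 (SE 0.16, adjusted p = 0.0187, edgeR), or 1.69-fold, and *Itga6* by 0.72 (SE 0.15, adjusted p = 0.0128, edgeR), or 1.65-fold, and in both genes the CB mice lay below all anti-Lag3 mice. The call of *Itga4* was lost without anti-Lag3 replicate 1 or 3 or any 1 CB mouse (adjusted p = 0.0563 to 0.113, edgeR; log2 fold changes -0.80 to -0.68). The call of *Itga6* was lost without anti-Lag3 replicate 2 (-0.60, adjusted p = 0.136, edgeR), CB replicate 1 (-0.71, adjusted p = 0.0720, edgeR) or CB replicate 3 (-0.71, adjusted p = 0.0736, edgeR). *Itgb7* differed by -0.36 (SE 0.11, adjusted p = 0.158, edgeR), and was called by DESeq2's Wald test (adjusted p = 0.0308). In 5 of the 9 chains (*Itga4*, *Itga6*, *Itgb7*, *Itgal* and *Itgb3*) every CB mouse lay below every anti-Lag3 mouse, as in 7.09% of all genes tested.

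Against anti-PD-L1, 1 of the 9 chains was called lower in CB and none higher, beside 0.165% of all genes tested called lower. This chain was *Itgb7*, which fell by 0.50 (SE 0.11, adjusted p = 0.0443, edgeR), or 1.42-fold, with all CB mice below all anti-PD-L1 mice. The call was lost without any 1 CB mouse, anti-PD-L1 replicate 1 or 2, anti-Lag3 replicate 2 or 3, or isotype replicate 2, with log2 fold changes of -0.54 to -0.43 and adjusted p-values of 0.0515 to 0.212 (edgeR). *Itga6* differed by -0.54 (SE 0.15, adjusted p = 0.128, edgeR). In 3 of the 9 chains (*Itgb7*, *Itga6* and *Itgal*) every CB mouse lay below every anti-PD-L1 mouse, as in 5.75% of all genes tested. *Itga4* differed by -0.22 (SE 0.16, adjusted p = 0.695, edgeR), and 1 anti-PD-L1 mouse lay below every CB mouse. *Itgal* differed by -0.26 (SE 0.10, adjusted p = 0.429, edgeR) and *Itgb1* by -0.19 (SE 0.18, adjusted p = 0.836, edgeR).

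**Figure D2:**
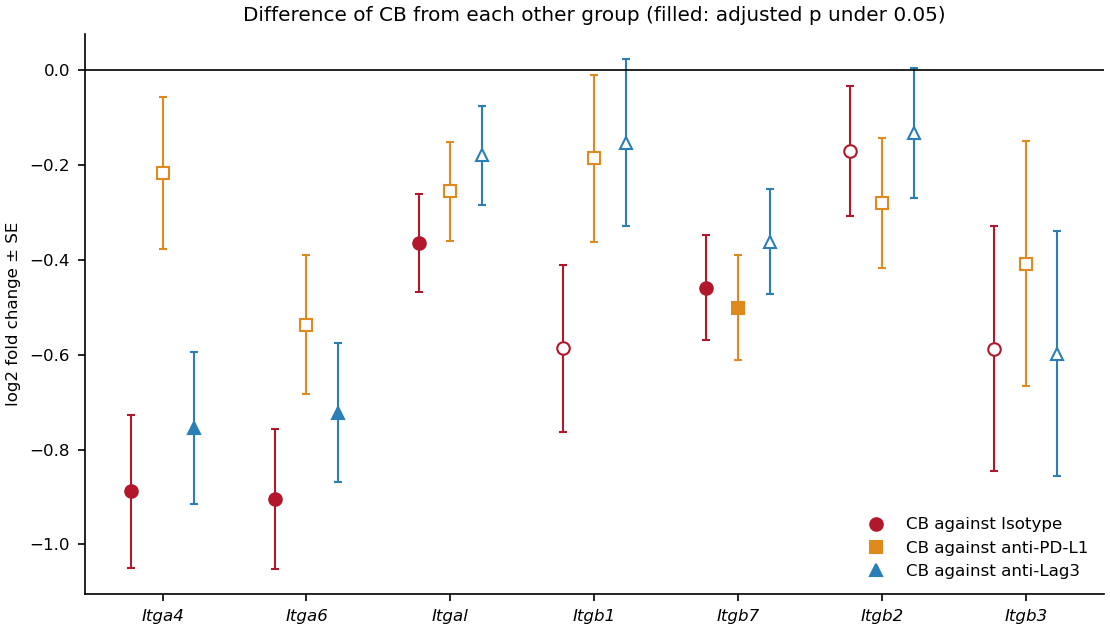
Log2 fold change of CB against isotype (circles), anti-PD-L1 (squares) and anti-Lag3 (triangles) for 7 chains, with bars of 1 SE from edgeR's fit. Filled symbols have an adjusted p under 0.05: Itga4 and Itga6 against isotype and anti-Lag3, Itgb7 against isotype and anti-PD-L1, and Itgal against isotype.

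The difference between CB and the sum of both single antibodies was tested as an interaction, and none of the 9 chains was called. Over all genes edgeR called none in this test (0.00%) and DESeq2's Wald test 1 higher and 4 lower, while 898 genes had an unadjusted p under 0.05 in edgeR. For *Itga4* the sum of the single differences from isotype was -0.81 beside -0.89 in CB, which left -0.08 (SE 0.23, adjusted p = 1.00, edgeR). For *Itga6* the sum was -0.55 beside -0.90, which left -0.35 (SE 0.21, adjusted p = 0.934, edgeR). For *Itgb7* the sum was -0.05 beside -0.46, which left -0.40 (SE 0.16, adjusted p = 0.804, edgeR). For *Itgb1* the sum of -0.83 was beyond the -0.59 of CB. Of these 4 genes *Itgb7* had the smallest unadjusted p (0.0158, edgeR).

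Chains were next read as partners, by the log2 ratio of alpha to beta chain CPM in each mouse, as a description without a test. The ratio of *Itga4* to *Itgb7* was -1.06 ± 0.26 in isotype, -1.09 ± 0.30 with anti-Lag3, -1.78 ± 0.48 with anti-PD-L1 and -1.48 ± 0.01 in CB. Every CB mouse lay below every isotype mouse, by 0.42 in the mean, and the 3 CB mice were almost equal (-1.49 to -1.47). The 3 anti-PD-L1 mice (-1.60, -2.33 and -1.42) also lay below every isotype mouse, and their mean was lower than that of CB. The ratios of *Itga4* to *Itgb1* (isotype -0.18 ± 0.49, CB -0.48 ± 0.32) and of *Itga6* to *Itgb1* (-0.36 ± 0.53 and -0.67 ± 0.32) overlapped between the groups. The ratio of *Itgal* to *Itgb2* was 1.03 ± 0.09 in isotype and 0.85 ± 0.18 in CB, also with overlap. The pairs of *Itgav* with *Itgb1* and *Itgb3* shifted by 0.56 and 0.58 with SDs of up to 0.82 in these groups. No ratio is given for *Itgae* and *Itgb7*, since *Itgae* was at 0 in CB.

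**Figure D3:**
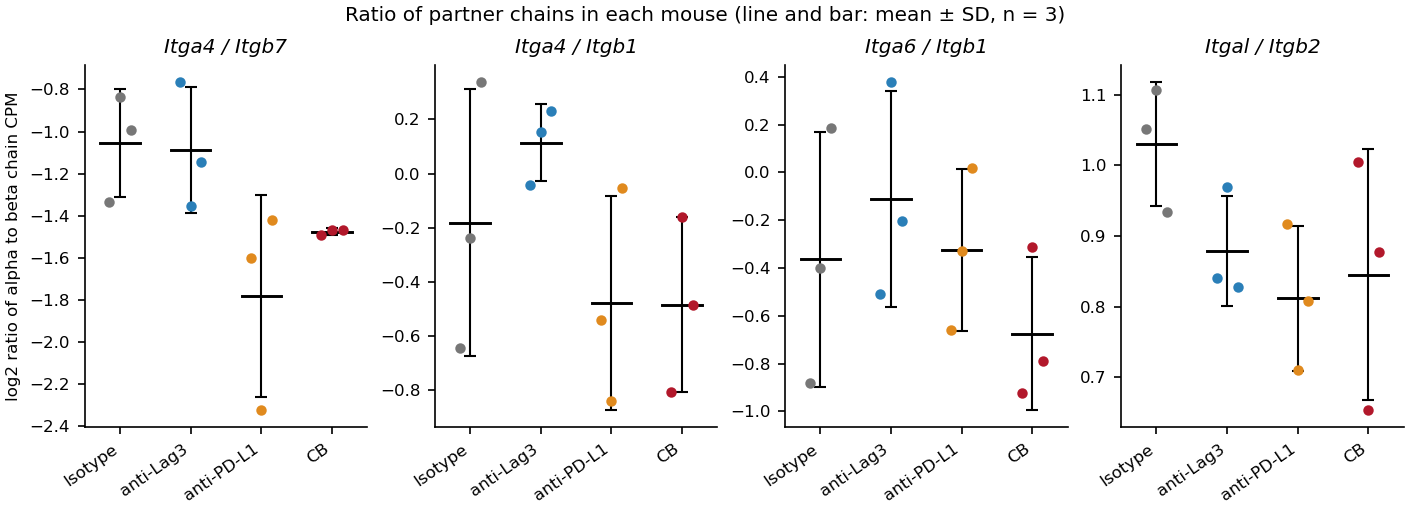
Log2 ratio of alpha to beta chain CPM in each mouse for 4 pairs, each panel with its own axis. Points are mice and the line and bar are the mean ± SD of 3. Only for Itga4 over Itgb7 do the CB mice (-1.49 to -1.47) lie outside the range of the isotype mice (-1.34 to -0.84). The anti-PD-L1 mice lie below the isotype mice for Itga4 over Itgb7 (-2.33 to -1.42) and for Itgal over Itgb2 (0.71 to 0.92).

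The genes that switch integrins on are known as the inside-out pathway, in which the GTPase Rap1 brings talin and kindlin-3 to the beta chain tail. Of 19 such genes and their regulators 18 were tested, and 7 were called lower in CB than in isotype and none higher, beside 1.96% of all genes tested called lower, with a median log2 fold change of -0.34. *Rasgrp2* encodes an exchange factor that loads Rap1 with GTP, and the paper had already named it among the downregulated genes. It had 368, 405 and 373 CPM in the isotype mice and 139, 190 and 193 CPM in the CB mice, and fell by 1.14 on the log2 scale (SE 0.12, adjusted p = 1.85e-06, edgeR). *Rasa3*, which encodes a GTPase-activating protein that turns Rap1 off, moved the same way, from 113, 160 and 145 CPM in the isotype mice to 52.0, 79.1 and 77.7 CPM in the CB mice (SE of the log2 fold change 0.16, adjusted p = 3.47e-04, edgeR). This activator and this inhibitor of Rap1 thus both fell. *Rapgef1* and *Sipa1*, also on this list, were not called, with log2 fold changes of 0.12 (SE 0.13) and 0.22 (SE 0.15). Of the 18 genes tested, 12 had a log2 fold change below 0. *Fermt3*, which encodes kindlin-3, fell by 0.47 (SE 0.10, adjusted p = 0.00718, edgeR), from 239 to 173 CPM in the mean. *Flna*, whose product filamin competes with talin for beta chain tails, fell by 0.59 (SE 0.10, adjusted p = 8.80e-04, edgeR), and *Skap1*, an adaptor that links the TCR to Rap1, by 0.51 (SE 0.12, adjusted p = 0.00830, edgeR). The other 2 called genes, *Stk4* (-0.42) and *Cyth1* (-0.83), are named with their values known, and *Stk4* lost its call without isotype replicate 2 or CB replicate 2 or 3 (-0.40 to -0.30) and *Cyth1* without isotype replicate 1 or 3 or CB replicate 2 or 3 (-0.86 to -0.70). *Skap1* lost it without CB replicate 1 or 3 (-0.46 to -0.45) and *Fermt3* without isotype replicate 1 (-0.41). *Cyth1* encodes cytohesin-1, which binds the beta2 tail, and had 17.2, 23.0 and 25.0 CPM with anti-PD-L1 and 36.5, 33.2 and 44.9 CPM in isotype.

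*Rap1a* (log2 fold change 0.02, SE 0.10) and *Rap1b* (-0.01, SE 0.10), which encode the GTPases themselves, were not called, and *Tln1*, which encodes talin, was not either (-0.34, SE 0.10, adjusted p = 0.0603, edgeR). The count of 7 was 4 without CB replicate 3, 3 when edgeR or DESeq2 tested against a change of 0.2 in log2 and 11 with DESeq2's Wald test. Against the single antibodies, 2 of these 18 genes were called lower in CB in each comparison, *Rasgrp2* and *Flna* against anti-PD-L1 and *Rasgrp2* and *Rasa3* against anti-Lag3, and with either antibody alone none was called against isotype.

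**Figure D4:**
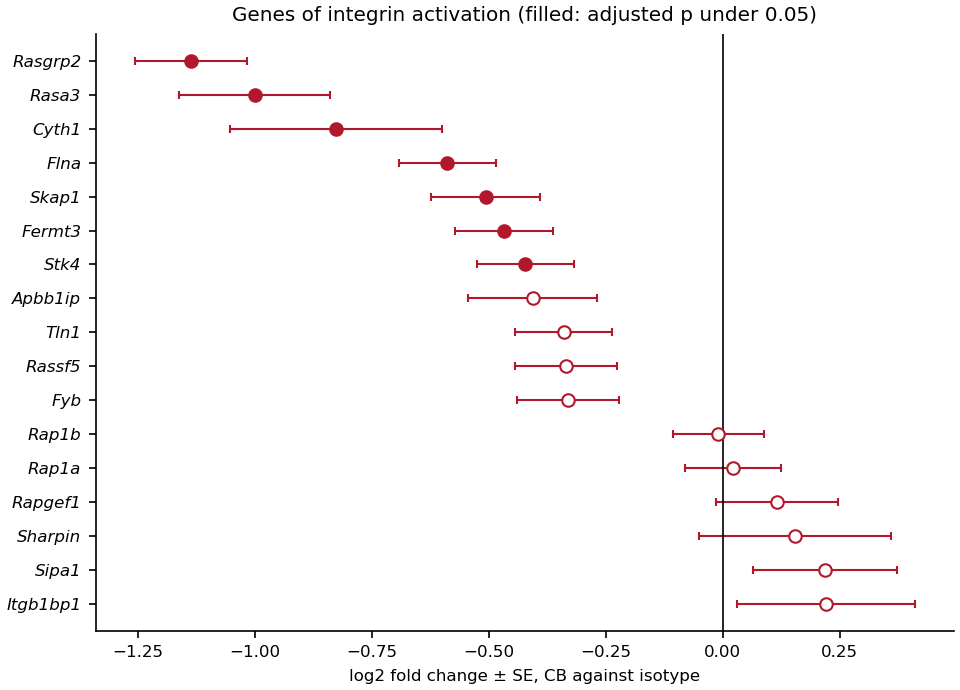
Log2 fold change of CB against isotype, with bars of 1 SE from edgeR's fit, for 17 genes of integrin activation (Tln2, with about 1 CPM, is left out). Filled symbols mark the 7 genes with an adjusted p under 0.05, all of them below 0, while Rap1a and Rap1b lie at 0.

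Of 20 genes of adhesion signalling downstream of integrins 18 were tested, and 3 were called lower and none higher, with a median of -0.31. The share of all genes called lower was 1.96% here too, as for the lists that follow. *Ilk*, integrin-linked kinase, fell by 0.79 (SE 0.16, adjusted p = 0.00383, edgeR), *Actn1*, the actin crosslinker alpha-actinin, by 0.49 (SE 0.09, adjusted p = 7.89e-04, edgeR), and *Vasp*, which extends actin filaments at adhesions, by 0.39 (SE 0.10, adjusted p = 0.0165, edgeR). *Vasp* lost its call without isotype replicate 1 or 2 or CB replicate 2 or 3 (-0.37 to -0.36). Of 9 membrane proteins that associate with integrins, 2 were called lower and none higher, with a median of -0.29. They were the tetraspanin *Cd37*, which fell by 0.85 (SE 0.17, adjusted p = 0.00296, edgeR), and *Cd47*, a partner of beta3 integrins and a signal against phagocytosis, which fell by 0.42 (SE 0.11, adjusted p = 0.0204, edgeR). The call of *Cd47* was lost without isotype replicate 2 or 3 or CB replicate 1 or 3 (log2 fold changes of -0.43 to -0.32). In this list 1 gene was called higher with no filter on low counts, with the replicate block and with the compared groups alone. The count called higher was also 1 without anti-PD-L1 replicate 3 and without CB replicate 2. *Slc3a2*, of the same list, had a log2 fold change of 0.54 (SE 0.18, adjusted p = 0.0873, edgeR) in the main fit. None of the 9 tested of 17 other integrin chains was called; the nearest was *Itga9*, at 7.39 CPM in isotype and 1.72 CPM in CB (adjusted p = 0.0550, edgeR), which was called with the filterByExpr filter (adjusted p = 0.0389, edgeR). None of the 8 tested of 14 genes of integrin ligands was called, and *Icam1*, the ligand of LFA-1, had 5.78 CPM in isotype and 14.3 CPM in CB (adjusted p = 0.112, edgeR).

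Of 10447 other genes whose mean count was 30 or more, those most like *Itga4* over the 12 libraries in log2 CPM were *Kif11* (Pearson r 0.946, Spearman rho 0.944), *Ephx1* (0.922 and 0.909) and *Tbc1d10c* (0.912 and 0.902). *Kif11*, which encodes a mitotic kinesin, had means of 96.7 CPM in CB, 109 with anti-PD-L1, 136 with anti-Lag3 and 146 in isotype, in the same order of groups as *Itga4*. Those most like *Itga6* were *Cmtm7* (0.947 and 0.860), *Traf3ip3* (0.937 and 0.937) and *S100a10* (0.935 and 0.853). *S100a10*, a partner of annexin A2, had 131 CPM in CB, 207 with anti-PD-L1, 241 with anti-Lag3 and 294 in isotype. These were picked as the highest of all values over 4 groups of 3, so they describe likeness and carry no p. The lists share no gene.

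Sums of other markers also shifted between groups, not all in the same direction. The summed level of 5 erythroid markers was 241 to 449 CPM in isotype, 213 to 287 with anti-Lag3, 170 to 217 with anti-PD-L1 and 149.5 to 198 in CB, an order of groups like that of *Itga4*, and 2 of the 5 (*Hbb-bs* and *Hbb-bt*) were called lower in CB. The 2 CD8 markers summed to 40.9 to 45.3 CPM in isotype and 25.0 to 33.2 CPM in CB, with neither called. The sums were 29.2 to 46.4 CPM with anti-Lag3 and 24.6 to 30.5 CPM with anti-PD-L1. Nearly all of this was *Cd8b1*, with means of 42.0 CPM in isotype and 29.7 CPM in CB. *Cd8a* had means of 0.77 CPM in isotype and 0.40 CPM in CB. The 5 CD4 T cell markers summed to 1691 to 1854 CPM in isotype and 1443 to 1617 CPM in CB, with *Cd4* and *Cd3e* called lower. The 4 regulatory T cell markers summed to 319 to 462 CPM in isotype and 419 to 569 CPM in CB, with none called. Much of this sum was *Ctla4*, with means of 234 and 288 CPM. *Foxp3* went the other way, from 4.28 ± 1.93 to 1.62 ± 0.29 CPM (log2 fold change -1.40, SE 0.90, adjusted p = 0.468, edgeR). Every CB mouse lay below every isotype mouse for *Foxp3*, as in 9.62% of all genes tested. The part of these shifts in the integrin values was not tested.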

How the data were processed

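Sorted responder cells of 12 mice were sequenced from the 3′ end of mRNA. Per the study's methods and the submitters' processing notes, the authors trimmed reads with Cutadapt 1.18, mapped them with STAR 2.6.1a to GRCm38 and counted uniquely mapped reads with FeatureCounts 1.6.4. The deposited count table holds raw counts, without normalization. The authors' second table holds rlog values, which are log2 values shrunken where counts are low, and served only as a check of 8 chains. Libraries that were not used numbered 0.

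Counts were fitted with edgeR 4.0.16, limma 3.58.1 and R 4.3.3: genes with at least 30 reads in sum, TMM factors, 1 model of 4 group means over all 12 samples, the quasi-likelihood test, and p-values adjusted after Benjamini and Hochberg over 15138 genes. Ratios and likeness used log2 CPM with a prior count of 2. DESeq2 1.42.0 was an alternative. The fits were tested on simulated data. All members are named; of the 5 other lists, members called between CB and isotype are named, at most the 5 of smallest adjusted p, and further ones needed for a count. The members and lists were chosen with earlier results of these data known. Gene symbols and coordinates came from a GENCODE annotation of GRCm38.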

Additional observations from a re-analysis of the deposited data

How the results depend on the processing

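The 8 other settings were tests against a change of 0.2 in log2 by edgeR and by DESeq2, DESeq2's Wald test against 0, DESeq2's size factors, edgeR's filterByExpr, no filter on low counts, a replicate block, and the compared groups alone. Between CB and isotype the number of chains called was 4, 2 with either test against 0.2 (*Itga4* and *Itga6*), and 5, with *Itgb1* added, with DESeq2's Wald test against 0, no filter and the replicate block. With the compared groups alone it was 4, with *Itgb1* in place of *Itgal*. Over the 12 fits that left out 1 sample it was 2 to 5. Between CB and anti-PD-L1 it was 1, and 0 with either test against 0.2 and with the compared groups alone, and 0 to 1 without 1 sample. Between CB and anti-Lag3 it was 2, 0 with either test against 0.2, 3 with DESeq2's Wald test against 0 (*Itgb7* added), and 0 to 2 without 1 sample. Between anti-PD-L1 and isotype it was 0, and 1 (*Itga4*) with no filter on low counts and with the replicate block (adjusted p = 0.0342, edgeR). Equal replicate numbers were not a stated pairing. Deviations of same-numbered samples correlated at -0.06 to 0.12 (median 0.06, 18 pairs, 10448 genes). Those of differently numbered samples correlated at -0.13 to 0.07 (median -0.015, 36 pairs). Not every sample correlated best with its own number. These values do not show whether the numbers follow the sort batches. With the replicate block 450 genes were called higher in CB than in isotype and 393 lower, against 353 and 296 without it. *Itgb1* was among those called lower with the block. Apart from *Itgb1* and *Itga4* the block altered no member's call in any comparison.

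Log2 fold changes near 0 turned sign when 1 sample was left out. They were those of *Itgav* between CB and isotype (-0.32 to 0.40) and *Itga4* in the interaction (-0.26 to 0.039). The others were those of *Itgb1* between CB and anti-Lag3 (-0.28 to 0.019) and *Itgb7* between anti-PD-L1 and isotype (-0.027 to 0.13). The cause of these shifts was not tested. The difference between CB and isotype in the ratio of *Itga4* to *Itgb7* was -0.56 to -0.31 without 1 sample. Other ratios rested more on single mice: that of *Itga4* to *Itgb1* went from -0.30 to -0.04 and that of *Itga6* to *Itgb1* from -0.31 to -0.04 without isotype replicate 3, that of *Itgal* to *Itgb2* from -0.19 to -0.09 without CB replicate 2, and those of *Itgav* to *Itgb1* and *Itgb3* from 0.56 and 0.58 to 1.03 and 0.87 without CB replicate 3. Chosen after seeing the data, the authors' rlog values gave smaller differences between CB and isotype for *Itga4* (-0.57), *Itga6* (-0.55), *Itgb7* (-0.36) and *Itgb3* (-0.19), as shrinkage does by construction. Depth limits *Itgae*, with 93 reads, and *Itgav*, with an SE of 0.59.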
